A study of Mus musculus with 16 samples.

Results

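The enzymes that break down serine, threonine and glycine were followed in the livers of obese mice given a glucagon receptor agonist, with or without added dietary protein. The set held 10 genes, chosen by name: Sds, Sdsl, Tdh, Gcat, Gldc, Amt, Gcsh, Shmt1, Shmt2 and Agxt. All 10 were found among the 55487 genes of the deposited table, in 11 rows, since Gcat has 2 overlapping gene identifiers. For 9 genes TPM averaged 1 or more over the libraries, so that they were tested, and for Tdh they did not. TPM is the abundance of a transcript as its share of a library, corrected for exon length.

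Male C57BL6/J mice received a high-fat diet (60 kcal%) for 8 weeks from 10 weeks of age according to the sample records, while the methods of the study give a younger age and a shorter period. The fat-rich diet was then continued with a standard protein content (SP) or a high one (HP), according to the methods already before dosing began. Vehicle or G108, a glucagon analogue, was injected under the skin every day for 22 days, the latter at 2.5 nmol/kg. Livers were taken after a 4 h fast, on day 25 according to the sample records and on day 22 according to the methods of the study. Each of the 4 groups, named vehicle SP, vehicle HP, G108 SP and, last, G108 HP, held 4 mice with 1 library per mouse. All mice were therefore male and obese on a high-fat diet, and no lean group was measured.

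In the liver, amino acids that are not needed for protein synthesis lose their nitrogen to the urea cycle and their carbon to glucose or to one-carbon units carried by folate. Glucagon signals in hepatocytes mainly through cAMP and is known for stimulating both amino acid breakdown and gluconeogenesis. Serine dehydratase, the product of Sds, turns serine into pyruvate and ammonia in 1 step, and is a classical example of a liver enzyme that is induced by glucagon and by protein-rich food. Glycine is instead taken apart in mitochondria by the glycine cleavage system, and serine and glycine are interconverted by serine hydroxymethyltransferases.

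Because glucagon acts through cAMP, the promoters of these genes were searched for the letters TGACGTCA (the full cAMP response element), TGACG (its core), CACGTG (an E-box) and TGATGCAA (a composite of ATF4 and C/EBP), on both strands. RefSeq windows from 250 bases before to 50 bases after the start were at hand for 7 of the 10 genes (build GRCm38.p6): Agxt, Gcsh, Amt, Shmt2, Shmt1, Gcat and Gldc. No window was at hand for Sds, Sdsl or Tdh, so their promoters were not searched. The full element was in 0 of these 7 windows and in 1.79% of all 32851 windows. The core was in 2 of 7, against 20.8% of all windows. An E-box was in 1 of 7, against 7.15%, and the composite in 0 of 7, against 0.895%. Stretches of 60 bases from 3 genes are shown in letters, the pair that holds the matches (matched bases in capitals) and, for contrast, the bases just before the start of Agxt, which hold none of the 4 motifs.
Gcat, chr15:79030829-79030888, plus strand: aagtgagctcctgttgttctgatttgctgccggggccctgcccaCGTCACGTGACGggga
Shmt1, chr11:60811361-60811420, minus strand: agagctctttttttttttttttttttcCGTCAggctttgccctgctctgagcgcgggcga
Agxt, chr1:93135180-93135239, plus strand: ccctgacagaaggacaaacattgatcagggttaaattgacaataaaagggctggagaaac
In Gcat, 1 core (written CGTCA on this strand) ran from position -1 to 4 and another from 7 to 11, counted from 1 at the start with no position 0, and both overlapped the E-box at 3 to 8. In Shmt1 the core lay at -128 to -124. The stretch of Shmt1 lies within the annotated span of the gene (60788104 to 60811718), so the annotated start is upstream of it. The core is part of the full element, and positions are relative to the RefSeq start. These are matches of letters, and no binding was measured.

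Reads per library were recovered from the steps in the deposited values. They ranged from 33.39 to 45.03 M in vehicle SP (median 40.37), 34.49 to 44.13 M in vehicle HP (37.17), 27.8 to 35.85 M in G108 SP (29.7) and 30.45 to 36.52 M in G108 HP (31.25). TPM are shares of a library, and a large part of each library went to a few transcripts. Transcripts of the 49 Mup genes and pseudogenes (major urinary proteins) took 42.6% to 49.7% of TPM in vehicle SP, 35.7% to 44.9% in vehicle HP, 18.3% to 23.0% in G108 SP and 18.2% to 29.6% in G108 HP. Genes of the mitochondrial genome took 13.8% to 24.0%, 15.2% to 20.7%, 16.6% to 21.0% and 21.0% to 37.3% in the same order, with the 37.3% in G108 HP mouse 3. Over the 11839 genes tested, the log2 fold change with G108 had a median of 0.60 on SP and 0.09 on HP. Each comparison is therefore also given after median-of-ratios scaling, a procedure that places the typical gene at the same level in all libraries and brought these medians to -0.01 and 0.00. Differences relative to the typical gene are those on this scale.

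By TPM, Sds rose with G108 on both diets, and the other 8 genes tested rose with it on SP. Of the set, 9 of 9 genes tested passed the test on SP by TPM, all higher with G108, where 77.6% of all genes passed and 77.0% were higher. After scaling 1 of 9 passed, Sds, against 2.72% of all genes and 1.33% that were higher. On HP 1 of 9 passed by TPM, again Sds (background 1.11%, higher 0.819%), and after scaling 0 of 9 (background 1.22%), with 1 at an unadjusted p under 0.05 (background 11.3%). Averaged over diets 8 of 9 passed, all but Gcsh (background 62.0%), and after scaling 2, Sds and Sdsl (background 5.81%). In bulk liver, a change in the number of cells of a type and a change in RNA per cell cannot be told apart. By TPM averaged over diets, Gldc lost its call without G108 HP 4 (adjusted p = 0.0533) and Gcsh gained one without G108 HP 3 (adjusted p = 0.0187). Groups did not overlap for 7 of 9 genes on SP (56.0% of all genes were likewise higher) and, after scaling, for Sds, Sdsl and Gcat (4.52%). On HP they did not overlap for Sds, by TPM (7.67%) and after scaling (4.20%).

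The median log2 fold change of the 9 genes was 1.16 on SP beside 0.60 for all genes, and 0.42 beside -0.01 after scaling. On HP it was 0.22 beside 0.09, and 0.11 beside 0.00 after scaling. On SP, 8 of 9 genes had a scaled log2 fold change above 0 (all but Shmt2), and on HP 6 of 9 (all but Gldc, Gcsh and Shmt2).

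**Figure D1:**
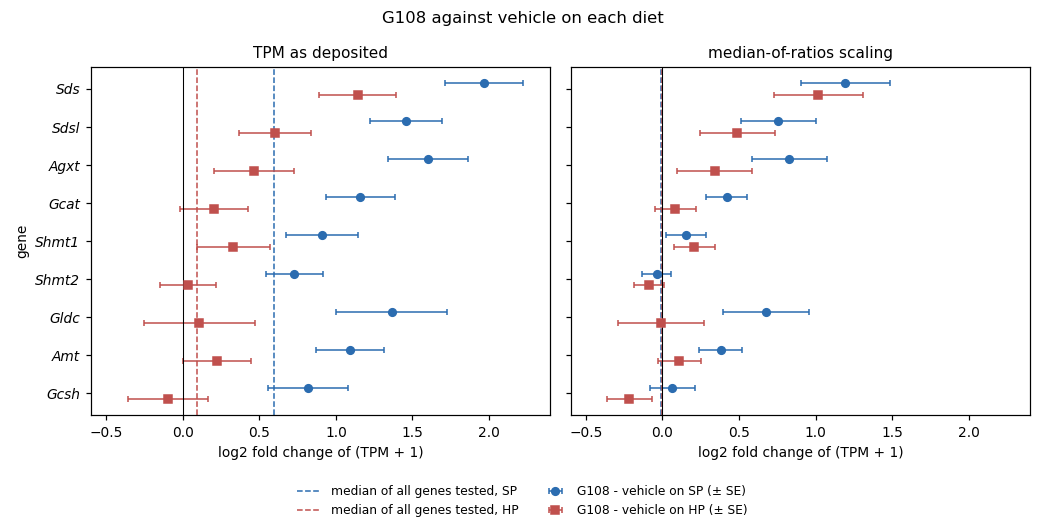
Log2 fold changes of G108 against vehicle (horizontal axes, on log2(TPM + 1), ± SE) for each gene (vertical axis) on SP (blue circles) and on HP (red squares), from TPM as deposited (left) and after median-of-ratios scaling (right). Dashed lines are the medians of all 11839 genes tested. Sds lies farthest to the right on both diets and in both panels, and on SP Shmt2 moves from 0.73 to -0.04 with scaling.

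Sds, which stood above every other gene of the set in all 4 groups, gave the clearest difference between G108 and vehicle. The gene (ENSMUSG00000029597) lies on chromosome 5 from 120476526 to 120483932 on the plus strand of GRCm38, with 9 exon blocks. Its TPM were 189.35, 146.8, 93.8 and 161.2 in vehicle SP mice 1 to 4. In vehicle HP they were 332.1, 232.9, 224.7 and 135.1. G108 SP mice had 449.4, 600.5, 643.8 and 577.1, and G108 HP mice had 409.5, 502.0, 489.6 and 559.0. All 8 G108-treated mice lay above all 8 vehicle-treated mice, a separation seen for 3.96% of all genes tested, while the vehicle groups overlapped each other, as did the G108 groups. After scaling this separation over both diets was not kept, since vehicle HP mouse 1 (398.9) lay above G108 SP mice 1 (383.4) and 4 (393.6), although the groups stayed apart within each diet. Group means were 147.8 ± 40.1 (SD, n = 4) in vehicle SP, 231.2 ± 80.6 in vehicle HP, 567.7 ± 83.6 in G108 SP and 490.0 ± 61.6 in G108 HP.

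On SP, Sds was 3.84-fold higher with G108 by mean TPM, with a log2 fold change of 1.97 (SE 0.25, adjusted p = 1.59e-04 by limma). After median-of-ratios scaling the log2 fold change was 1.19 (SE 0.29, adjusted p = 0.0413), at percentile 99.5 of all genes tested. On HP it was 1.14 (SE 0.25, adjusted p = 0.0384), and 1.02 after scaling (SE 0.29, adjusted p = 0.128), again at percentile 99.5. Averaged over both diets, with 8 mice against 8, the log2 fold change was 1.55 (SE 0.18, adjusted p = 4.16e-05), and 1.10 after scaling (SE 0.21, adjusted p = 0.0044). This averaged difference passed the test in 16 of 16 fits that each left out 1 library, on both scales (adjusted p from 0.0014 to 0.0119 after scaling). The call on HP depended on single libraries: it was kept in 6 of 16 such fits, without vehicle SP 1, 3 or 4, vehicle HP 1, or G108 SP 1 or 3, and lost without any of the other 10, with adjusted p from 0.0218 to 0.138. The scaled call on SP was kept in 5 of 16, without vehicle SP 1 or 4, vehicle HP 1 or 4, or G108 HP 3, with adjusted p from 0.0162 to 0.121 over the 16 fits. The scaled difference on HP was called in 1 of 16, without vehicle HP 1 (adjusted p = 0.0449), and reached 0.418 in other fits.

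**Figure D2:**
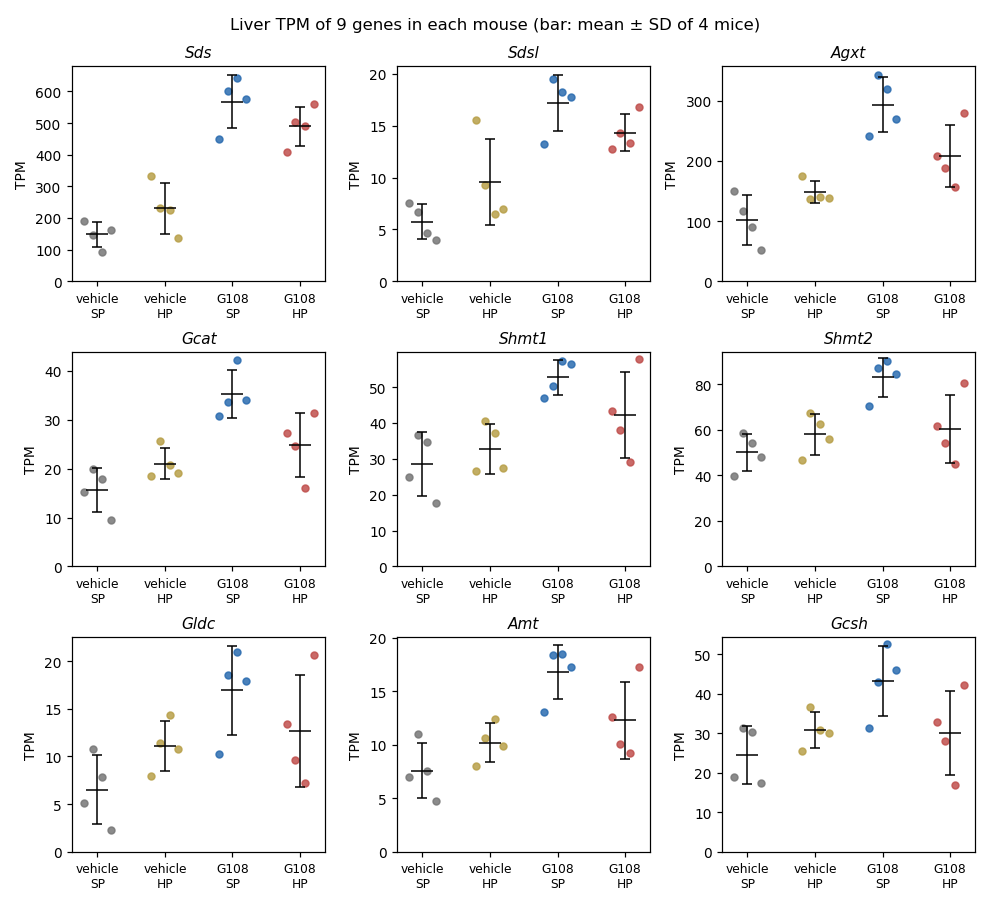
TPM of the 9 genes tested (vertical axes, from 0) in each mouse of the 4 groups (horizontal axes). Points are mice 1 to 4 from left to right, and bars are the mean ± SD of 4 mice. All 8 G108-treated mice lie above all 8 vehicle-treated mice for Sds, and for Agxt and Sdsl this separation is seen on SP but not on HP.

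Exons of Sds share bases with genes on the opposite strand: 360 bases with Plbd2, which is 21.3% of the exon bases of Sds, and 141 bases with the antisense gene Gm15690, which is 8.32% of the exon bases of Sds and 32.6% of those of Gm15690. Mean TPM over the 16 libraries were 359.2 for Sds, 47.9 for Plbd2 and 482.7 for Gm15690. Of all genes tested, Gm15690 (r = 0.97) and Plbd2 (r = 0.97) had the scaled pattern over the 16 libraries most similar to that of Sds, followed by Slc25a22, a mitochondrial glutamate carrier (r = 0.95). Whether the authors' counting used strand is not given in the sources used here, so reads from the shared stretches cannot be assigned to 1 of these genes.

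Sdsl, the serine dehydratase-like neighbour of Sds, was far less abundant and moved with it. It (ENSMUSG00000029596) lies 3715 bases from Sds on chromosome 5, from 120458186 to 120472810 on the minus strand. Its TPM were 7.59, 6.68, 4.62 and 3.99 in vehicle SP, 15.5, 9.30, 6.45 and 7.01 in vehicle HP, 13.2, 19.5, 18.3 and 17.7 in G108 SP, and 12.8, 14.3, 13.4 and 16.8 in G108 HP. On SP every G108-treated mouse was above every vehicle-treated mouse. On HP the groups overlapped through vehicle HP mouse 1, which at 15.5 lay above 3 of the 4 G108 HP mice and was also the highest of its group for Sds.

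The log2 fold change of Sdsl on SP was 1.46 (SE 0.23, adjusted p = 4.85e-04), or 0.75 after scaling (SE 0.25, adjusted p = 0.129). After scaling it was called in 2 of 16 fits without 1 library. These were without vehicle SP 1 (adjusted p = 0.0424) or vehicle HP 1 (0.0284), and the adjusted p reached 0.284 in other fits. On HP the log2 fold change was 0.60 (SE 0.23, adjusted p = 0.291), or 0.49 after scaling (adjusted p = 0.487). Averaged over diets it was 1.03 (SE 0.16, adjusted p = 4.69e-04), or 0.62 after scaling (SE 0.17, adjusted p = 0.0492). That scaled call was close to the threshold: it was kept in 2 of 16 fits without 1 library, those without vehicle SP 1 (adjusted p = 0.0154) or vehicle HP 1 (adjusted p = 0.0023), and lost without any of the other 14, where it reached 0.105. Scaled levels of Sds and Sdsl had a Pearson r of 0.89 over the 16 libraries and of 0.76 for deviations from the group means, given as a description of libraries that share the treatment.

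Tdh, threonine dehydrogenase, starts the route from threonine to glycine that Gcat completes. It (ENSMUSG00000021953, chromosome 14 from 63492347 to 63509092, minus strand) had 1 read in all, in vehicle HP mouse 3, and was at 0 in the other 15 libraries. A floor of 3 reads per library corresponds to 0.0291 to 0.0559 TPM, so Tdh was not detectable at this depth in any group (counting error only).

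Gcat, the ligase that splits aminoketobutyrate into glycine and acetyl-CoA, was readily detected all the same. Its main row (ENSMUSG00000006378, chromosome 15 from 79030874 to 79038353, plus strand) gave 15.2, 19.9, 17.9 and 9.45 TPM in vehicle SP and 18.5, 25.6, 20.8 and 19.1 in vehicle HP. With G108 it gave 30.8, 33.7, 42.3 and 34.0 on SP and 27.25, 24.6, 16.1 and 31.4 on HP. The 4 G108 SP mice stood above the 4 vehicle SP mice, whereas on HP the groups overlapped, with G108 HP mouse 3 below all vehicle HP mice. On SP the log2 fold change was 1.16 (SE 0.22, adjusted p = 0.0011), or 0.42 after scaling (SE 0.13, adjusted p = 0.120), and the scaled groups still did not overlap. On HP it was 0.20 (adjusted p = 0.848), or 0.08 after scaling.

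A second identifier for Gcat (ENSMUSG00000116378, from 79030901 to 79042531) shares 1132 exon bases with the first, which is 47.5% of the exon bases of the main row. Its TPM followed those of the main row (r = 0.9971 over 16 libraries), with a log2 fold change of 1.30 on SP (SE 0.28, adjusted p = 0.0017). Since the authors' counting could split reads between the 2 rows, the level of Gcat is uncertain, and Gcat is counted once.

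The glycine cleavage system is assembled from 4 proteins, of which Gldc (the decarboxylase, P protein), Amt (the aminomethyltransferase, T protein) and Gcsh (the lipoyl carrier, H protein) belong to the set. All 3 had higher TPM with G108 on SP and passed the test there, and none passed it on HP. Gldc (ENSMUSG00000024827, chromosome 19 from 30098447 to 30175429, minus strand) varied widely between mice, with 5.16, 10.8, 7.83 and 2.25 TPM in vehicle SP, 7.92, 11.4, 14.3 and 10.8 in vehicle HP, 10.2, 18.6, 20.95 and 18.0 in G108 SP, and 13.4, 9.59, 7.21 and 20.7 in G108 HP. Vehicle SP mouse 4 was the lowest of all 16, and the groups overlapped on both diets. The log2 fold change of Gldc on SP was 1.37 (SE 0.36, adjusted p = 0.0046), or 0.68 after scaling (SE 0.28, adjusted p = 0.228), and on HP 0.11 (SE 0.36, adjusted p = 0.975), or -0.01 after scaling.

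Amt (ENSMUSG00000032607, chromosome 9 from 108296853 to 108302302, plus strand) had 6.98, 10.98, 7.57 and 4.77 TPM in vehicle SP and 7.96, 10.6, 12.4 and 9.86 in vehicle HP. With G108 it had 13.1, 18.4, 18.5 and 17.2 on SP and 12.6, 10.0, 9.24 and 17.2 on HP. The SP groups stood apart and the HP groups overlapped. Its log2 fold change was 1.09 on SP (SE 0.22, adjusted p = 0.0014), or 0.38 after scaling (adjusted p = 0.179), and 0.22 on HP (adjusted p = 0.818), or 0.11 after scaling.

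Gcsh (ENSMUSG00000034424, chromosome 8 from 116981810 to 116993537, minus strand) was the most abundant of the 3. Vehicle SP mice had 18.9, 31.4, 30.4 and 17.4 TPM, vehicle HP mice 25.5, 36.7, 30.7 and 30.1, G108 SP mice 31.3, 43.0, 52.5 and 45.9, and G108 HP mice 32.9, 27.9, 16.9 and 42.2. Its log2 fold change on SP was 0.82 (SE 0.26, adjusted p = 0.0111) at percentile 77.5 of all genes, and 0.06 after scaling (adjusted p = 0.821). On HP it was -0.09 (adjusted p = 0.969), or -0.22 after scaling (adjusted p = 0.663). Scaled levels of Gldc and Amt had an r of 0.90 over the 16 libraries (0.87 within groups), and those of Gldc and Gcsh 0.62.

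Shmt1 and Shmt2, the cytosolic and the mitochondrial serine hydroxymethyltransferase, rose on SP by TPM and were not called after scaling on either diet. Shmt1 (ENSMUSG00000020534, chromosome 11 from 60788104 to 60811718, minus strand) had 25.1, 36.7, 34.8 and 17.7 TPM in vehicle SP, 26.5, 40.4, 37.2 and 27.4 in vehicle HP, 46.9, 50.4, 57.3 and 56.3 in G108 SP, and 43.5, 38.14, 29.1 and 57.9 in G108 HP. Shmt2 (ENSMUSG00000025403, chromosome 10 from 127517123 to 127522444, minus strand) had 39.6, 58.5, 54.2 and 47.9 in vehicle SP, 46.6, 67.3, 62.4 and 55.8 in vehicle HP, 70.6, 87.2, 90.0 and 84.3 in G108 SP, and 61.7, 54.2, 44.8 and 80.3 in G108 HP. For both genes the SP groups stood apart by TPM and overlapped after scaling. On SP the log2 fold change of Shmt1 was 0.91 (SE 0.24, adjusted p = 0.0041) and that of Shmt2 0.73 (SE 0.19, adjusted p = 0.0037), falling to 0.15 and -0.04 after scaling. On HP they were 0.33 (adjusted p = 0.682) and 0.03 (adjusted p = 0.986), or 0.21 (adjusted p = 0.634, percentile 85.3 of all genes) and -0.09 (adjusted p = 0.825) after scaling.

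Agxt, which makes glycine from glyoxylate with alanine as the amino donor and can also transaminate serine, came next to Sds in abundance. It (ENSMUSG00000026272) lies on chromosome 1 from 93135240 to 93145421 on the plus strand. TPM were 150.1, 116.4, 89.3 and 52.3 in vehicle SP, 175.6, 137.1, 139.9 and 139.1 in vehicle HP, 241.2, 342.5, 320.0 and 270.3 in G108 SP, and 208.7, 187.4, 156.9 and 279.4 in G108 HP. On SP the lowest G108-treated mouse (241.2) was above the highest vehicle-treated mouse (150.1), and on HP G108 mouse 3 (156.9) fell below vehicle mouse 1 (175.6). The log2 fold change on SP was 1.60 (SE 0.26, adjusted p = 5.44e-04), or 0.83 after scaling (SE 0.24, adjusted p = 0.0929). On HP it was 0.47 (SE 0.26, adjusted p = 0.544), or 0.34 after scaling (adjusted p = 0.690). Averaged over diets it was 1.03 (SE 0.19, adjusted p = 9.65e-04), or 0.58 after scaling (adjusted p = 0.0636). The scaled averaged difference was called in 2 of 16 fits without 1 library. These were without vehicle SP mouse 1 (adjusted p = 0.0023) or vehicle HP mouse 1 (0.0454), and its adjusted p reached 0.134 in other fits. The scaled difference on SP was called in 1 of 16, without vehicle SP mouse 1 (adjusted p = 0.0033), and reached 0.244 in other fits.

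The question of whether added protein changed these genes was addressed by comparing HP with SP. With vehicle, all 9 genes had higher mean TPM on HP, with log2 differences from 0.21 (Shmt2) to 0.82 (Gldc, SE 0.36), but limma called 0 of 9 and 0% of all genes (adjusted p = 0.727 for Gldc, Agxt, Sds and Sdsl). At an unadjusted p under 0.05, 4 of 9 passed (Gldc, Agxt, Sds and Sdsl), where 3.16% of all genes did. After scaling all 9 remained above 0 and 1 of 9, Gldc (0.67, SE 0.28, unadjusted p = 0.0314), passed at the unadjusted level, against 3.94% of all genes. The median of the 9 genes was 0.44 beside 0.14 for all genes, and 0.25 beside 0.00 after scaling.

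With G108, all 9 genes had lower mean TPM on HP than on SP, with log2 differences from -0.21 (Sds, SE 0.25) to -0.56 (Gcsh, SE 0.26). The typical gene was lower as well: the median was -0.35 for all genes, beside -0.45 for the 9. Sds and Sdsl (-0.24) lay above the median of all genes. None of the 9 was called (0% of all genes), and 3 passed at an unadjusted p under 0.05 (Gcat, Gcsh and Shmt2), where 45.0% of all genes did. This direction depended on the scaling for Sds (0.24 after scaling), Sdsl (0.18) and Shmt1 (0.09), and the other 6 genes lay between -0.12 and -0.02. After scaling 0 of 9 passed at the unadjusted level, against 5.40% of all genes. Without G108 HP mouse 4, the highest of its group for all 9 genes, 4 of 9 were called by TPM (Gcat, Amt, Gcsh and Shmt2), while 42.6% of all genes were called as well.

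The effect of G108 was smaller on HP than on SP for all 9 genes by TPM, with a median interaction term of -0.86. The typical gene went the same way, with a median of -0.49 over all genes tested. Terms of the 9 genes ran from -1.26 (Gldc, SE 0.51, adjusted p = 0.0842) and -1.14 (Agxt, SE 0.37, adjusted p = 0.0799) to -0.58 (Shmt1, SE 0.33, adjusted p = 0.164). For Sds the term was -0.82 (SE 0.36, adjusted p = 0.0890), or -0.17 after scaling (SE 0.41, adjusted p = 0.846). None of the 9 was called (0% of all genes), although 8 passed at an unadjusted p under 0.05, where 48.0% of all genes did. After scaling 0 of 9 passed at that level (7.21% of all genes), the terms lay between -0.69 (Gldc, adjusted p = 0.575) and 0.05 (Shmt1), and the median was -0.27 beside 0.01. The TPM count depended on single libraries: 6 of 9 were called without vehicle SP 2 (29.3% of all genes), 7 without G108 SP 1 (33.4%) and 7 without G108 HP 4 (43.9%).

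By mean TPM the order of the groups was G108 SP, G108 HP, vehicle HP, vehicle SP for 8 of the 9 genes. For Gcsh, vehicle HP came before G108 HP. Median log2 differences over all genes gave the same order as for these 8. G108 HP stood at -0.35 from G108 SP and 0.09 from vehicle HP, and vehicle HP at 0.14 from vehicle SP. After scaling, mean levels kept the order for Gcat, Gldc, Amt and Agxt. Sds (491.9 in G108 HP, 412.6 in G108 SP), Sdsl and Shmt1 were then highest in G108 HP, and Shmt2 and Gcsh in vehicle HP. Of the neighbours in the TPM order that were tested, 1 pair was called, Sds between G108 HP and vehicle HP (adjusted p = 0.0384 by limma). In that comparison 1.11% of all genes were called. The call was not kept after scaling (adjusted p = 0.128), and by TPM it was kept in 6 of 16 fits without 1 library. It was also lost with no filter, with a fit of only the groups compared and with a replicate block. Libraries also stood apart for many genes at once: G108 SP mouse 1 was the lowest of its group for 9 of 9 genes and G108 HP mouse 4 the highest for 9 of 9, and G108 HP mouse 3, with the highest mitochondrial share, was the lowest for 7 of 9. After scaling these counts were 5, 6 and 6. Vehicle SP mouse 4 was likewise the lowest of its group for 7 genes (6 after scaling), and vehicle HP mouse 1 for 6 (4 after scaling). Highest of their groups were G108 SP mouse 3 for 7 genes and vehicle SP mouse 2 for 6 (2 each after scaling). The part of the mitochondrial share in these results was not tested.

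Ratios of 2 genes within a library do not depend on the scaling, and were chosen after the values were seen, so they are given as a description with no test. Per 1 TPM of Shmt2, the TPM of Sds averaged 3.10 ± 1.31 (SD, n = 4) in vehicle SP, 4.15 ± 2.05 in vehicle HP, 6.81 ± 0.33 in G108 SP and 8.45 ± 2.02 in G108 HP. Vehicle HP mouse 1, at 7.13, reached the range of the G108-treated mice (6.36 to 10.9), and the other 7 vehicle-treated mice stayed at or below 4.79. For Agxt the same ratio was 2.13 ± 1.17, 2.64 ± 0.78, 3.53 ± 0.30 and 3.46 ± 0.05, and mouse 1 of each vehicle group (3.80 and 3.77) lay within the range of the G108-treated mice. Gcsh per Shmt2 stayed nearly level, at 0.484, 0.531, 0.516 and 0.488.

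Within the glycine cleavage system the proportions varied as well. Gldc per Gcsh was 0.251 ± 0.089 in vehicle SP, 0.362 ± 0.074 in vehicle HP, 0.387 ± 0.044 in G108 SP and 0.417 ± 0.060 in G108 HP, and Amt per Gcsh was 0.311, 0.332, 0.393 and 0.425. Gldc per Amt was 0.806 ± 0.257 in vehicle SP and between 0.992 and 1.08 in the other groups, where vehicle SP mouse 4 had the lowest value (0.472). The ranges of the groups overlapped for these 3 ratios, except for Gldc per Gcsh between vehicle SP (highest 0.3427) and G108 HP (lowest 0.3433).

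**Figure D3:**
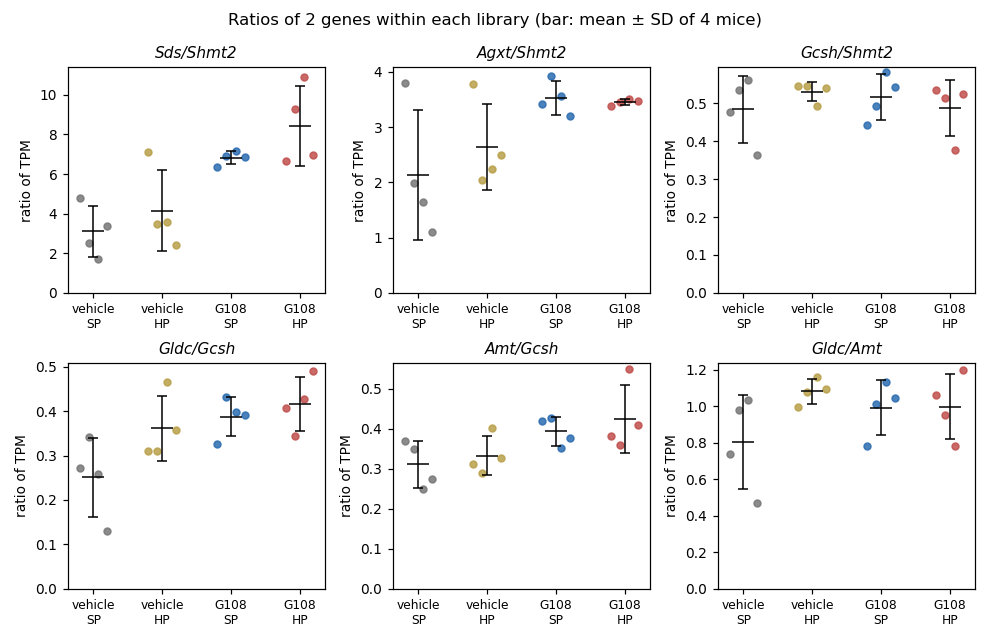
Ratios of the TPM of 2 genes within each library (vertical axes, from 0) in the 4 groups (horizontal axes). Points are mice 1 to 4 from left to right, and bars are the mean ± SD of 4 mice. Sds per Shmt2 is 3.10 and 4.15 in the vehicle groups and 6.81 and 8.45 with G108, with vehicle HP mouse 1 at 7.13, while Gcsh per Shmt2 stays between 0.484 and 0.531 on average.

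Genes next to these reactions were examined in 5 lists. For the transfer of methyl and amidino groups to and from glycine, 7 of 8 listed genes were tested, 5 rose on SP by TPM and 1 after scaling, with a scaled median of -0.09. In the same comparison 77.0% of all genes rose by TPM and 1.33% after scaling, which is the background for the counts of all 5 lists. The gene called after scaling was Gnmt, glycine N-methyltransferase, which uses glycine to remove surplus S-adenosylmethionine. Its mean TPM were 414.2 ± 164.8 in vehicle SP, 776.3 ± 164.9 in vehicle HP, 1861 ± 334.5 in G108 SP and 1343 ± 674.7 in G108 HP. The log2 fold change of Gnmt on SP was 2.27 (SE 0.36, adjusted p = 4.61e-04), or 1.49 after scaling (SE 0.27, adjusted p = 0.0074), and on HP 0.68 (SE 0.36, adjusted p = 0.490). Pipox, which oxidizes pipecolate and sarcosine, was at 0.68 on SP (SE 0.15, adjusted p = 0.0022), or -0.09 after scaling, and Sardh, sarcosine dehydrogenase, at 1.02 (SE 0.28, adjusted p = 0.0054), or 0.25.

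Among other enzymes and carriers of serine, threonine and glycine, 6 of 6 were tested, 6 rose on SP by TPM and 1 after scaling (median 0.16). This was Cbs, cystathionine beta-synthase, which condenses serine with homocysteine, at 29.3 ± 9.88 TPM in vehicle SP, 42.7 ± 5.0 in vehicle HP, 104.0 ± 24.5 in G108 SP and 65.5 ± 20.0 in G108 HP. Its log2 fold change on SP was 1.83 (SE 0.27, adjusted p = 3.20e-04), or 1.07 after scaling (SE 0.19, adjusted p = 0.0066), and on HP 0.57 (SE 0.27, adjusted p = 0.414). The list also held Sfxn1, a mitochondrial serine carrier, at 0.79 on SP (SE 0.21, adjusted p = 0.0046), or 0.13 after scaling, and Dld, the L protein that the glycine cleavage system shares with other dehydrogenases, at 1.13 on SP (SE 0.31, adjusted p = 0.0058) and 0.41 after scaling (adjusted p = 0.328).

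Of the folate genes that carry one-carbon units, 7 of 12 were tested, and 6 rose on SP by TPM and 0 after scaling (median 0.10, 2 at an unadjusted p under 0.05). Among those that rose by TPM were Ftcd, which passes a one-carbon unit from histidine breakdown to folate (0.81, SE 0.15, adjusted p = 9.86e-04, or 0.03 after scaling), and Aldh1l1, the cytosolic 10-formyltetrahydrofolate dehydrogenase (1.16, SE 0.22, adjusted p = 9.86e-04, or 0.39). In glyoxylate and glycerate metabolism, 5 of 6 tested rose by TPM and 0 after scaling (median 0.05), led by Agxt2, a mitochondrial aminotransferase (1.00, SE 0.14, adjusted p = 2.86e-04, or 0.24 after scaling). Next were Glyctk, glycerate kinase (0.78, SE 0.22, adjusted p = 0.0066, or 0.02), and Hoga1 (0.66, SE 0.21, adjusted p = 0.0120, or -0.10). For serine synthesis, 1 of 3 genes was tested, Psph, the last enzyme of that route (0.66, SE 0.18, adjusted p = 0.0049, or 0.23 after scaling). On HP 0 genes of any of the 5 lists were called, on either scale. Averaged over diets after scaling, the list of methyl and amidino group transfer had 1 gene higher and 1 lower. Other enzymes and carriers had 1 higher, and the remaining lists 0 (background 5.81%). The lower gene was Glyat (-0.36, SE 0.08, adjusted p = 0.0134 by limma), at 0.08 by TPM (adjusted p = 0.550).

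**Figure D4:**
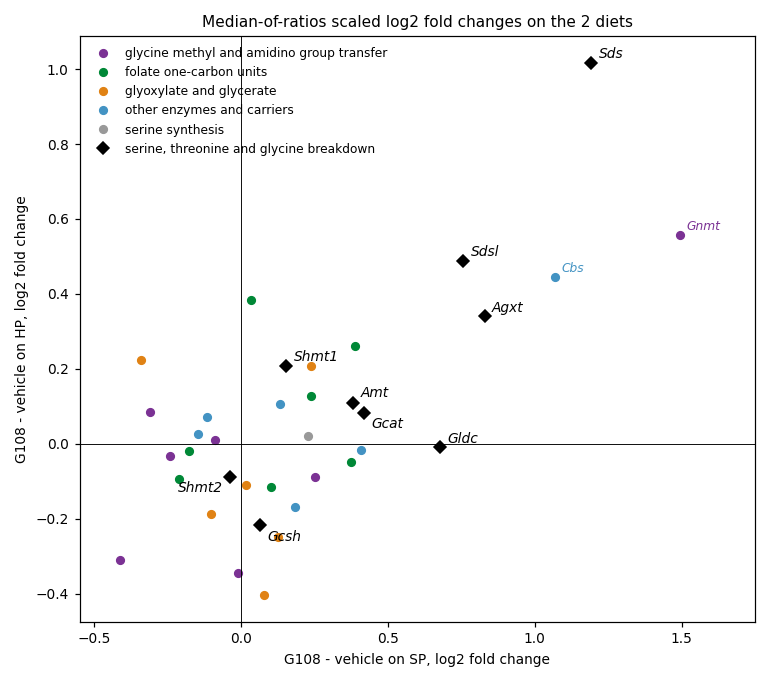
Median-of-ratios scaled log2 fold changes of G108 against vehicle on SP (horizontal axis) and on HP (vertical axis), for the 9 genes of serine, threonine and glycine breakdown (black diamonds) and for 27 neighbouring genes in 5 lists (coloured circles). Sds (1.19 and 1.02) is the highest point, and Gnmt (1.49 and 0.56) and Cbs (1.07 and 0.45) lie to the right with it, while most of the other genes lie near 0 on both axes.

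Genes with the most similar scaled patterns over the 16 libraries were ranked by Pearson r among all genes tested, as a description. The nearest to Sdsl was Rundc3a (r = 0.92), to Gcat Gstm7 (0.93), to Gldc Ghitm (0.94), to Amt Gldc (0.90), to Gcsh Agpat3 (0.92), to Shmt1 Sarnp (0.91), to Shmt2 Hoga1, an enzyme of hydroxyproline breakdown (0.90), and to Agxt Nqo2 (0.93). These libraries share the treatment and the diet, and the ranking moved with the scaling: from 1 to 3 of the 3 nearest genes were the same by TPM.

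The labelled tissue matched its markers, since 5 hepatocyte markers summed to 13240 to 35230 TPM in every library, while 5 Kupffer cell markers summed to 24.5 to 86.9. On SP by TPM, where 77.0% of all genes rose, 5 of 5 hepatocyte markers tested rose with G108, as did 0 of 4 Kupffer cell, 1 of 3 endothelial, 1 of 2 stellate cell, 1 of 5 red blood cell and 1 of 1 exocrine pancreas markers. On SP after scaling, and on HP on both scales, 0 markers of any list were called. Averaged over diets, 2 of 5 hepatocyte and 1 of 5 red blood cell markers were higher by TPM, and 1 of 5 red blood cell markers after scaling. The summed hepatocyte markers ranged from 13240 to 25100 TPM in vehicle SP, 17608 to 23524 in vehicle HP, 23586 to 35230 in G108 SP and 14986 to 24040 in G108 HP, and their part in the TPM differences of the set was not tested.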

How the data were processed

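Liver RNA of 16 mice was sequenced by the authors, 1 library per mouse. Per the labels and the methods of the study, reads were checked with FastQC 0.11.8, aligned to GRCm38 with HISAT2 2.0.5 and counted per gene with featureCounts, and the deposited values are TPM, computed by the authors from counts and exon lengths. The study tested its counts with DESeq2 1.36.0, and counts were not used here.

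Identifiers were named from the GENCODE annotation of GRCm38 (55227 of 55487). Log2(TPM + 1) of the 11839 genes whose TPM averaged 1 or more was fitted in limma 3.58.1 under R 4.3.3 (1 mean per group, intensity trend), with Benjamini-Hochberg adjustment over all genes and calls at an adjusted p under 0.05. The pseudocount of 1 understates changes of low genes. Median-of-ratios factors came from 11591 genes. Reads were recovered from TPM steps (98.79% of 139184 low values within 0.02 of a whole read). No pair of libraries was a duplicate (at most 0.262% of values identical).

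Named genes were all 10 members, up to 3 called genes per neighbouring list with the smallest adjusted p, and the tested genes most similar to each member. A gene that this rule selects is not reported here. Members and lists were chosen with earlier results of these data known. Scripts were tested on simulated data. Alternatives were a pseudocount of 0.1, no filter, a mean TPM of at least 5, both scalings, a fit of only the groups compared, a replicate block, voom on recovered reads with median-of-ratios scaling, and each library left out in turn. Leave-one-out, block and voom fits on the median-of-ratios scale were added after seeing the data.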

Additional observations from a re-analysis of the deposited data

Results flagged for a closer look

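Of 36 sets of 4 mice (9 genes in 4 groups), 1 held a mouse far from the other 3. Agxt in vehicle HP mouse 1 was at 175.6 TPM, where the other 3 mice lay between 137.1 and 139.9, a gap of 0.926 of the range of the group and above the limit of Dixon's test. The sets were checked by TPM only. After median-of-ratios scaling, mice 1 to 4 of this set were at 211.0, 128.5, 153.4 and 159.2, so the other mice lay farther apart. Chance alone flags about 1 in 20 such sets.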

How the results depend on the processing

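Calls rested on the scaling. Genes called out of 9 for G108 against vehicle on SP, on HP and averaged over diets went from 9, 1 and 8 to 1, 0 and 2 with median-of-ratios scaling, with TPM rescaled without mitochondrial genome and Mup genes, and with voom on recovered reads, which used the same median-of-ratios scaling. On HP the count was also 0 with no filter, with a fit of only the groups compared and with the mouse number as a replicate block. The block changed no other count by TPM, and on the median-of-ratios scale it took the count on SP from 1 to 0 and the averaged count from 2 to 1. For 24 same-numbered pairs of mice, r of the deviations lay between -0.575 and 0.527. For pairs with different numbers it lay between -0.546 and 0.620, so mouse numbers showed no pairing by this measure. Apart from the construction of the scalings, the cause of these changes was not tested.

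Signs turned with the scaling for small differences. With median-of-ratios scaling the log2 fold change became -0.037 for Shmt2 on SP, -0.0095 for Gldc and -0.089 for Shmt2 on HP, and -0.077 for Gcsh and -0.063 for Shmt2 averaged. For HP against SP with G108 it became 0.24 for Sds, 0.18 for Sdsl and 0.086 for Shmt1, and the interaction of Shmt1 became 0.054. With TPM rescaled, values were -0.086 for Gldc and -0.17 for Shmt2 on HP, -0.085 for Gcsh and -0.071 for Shmt2 averaged, and 0.092 for Sds and 0.042 for Sdsl with G108. With voom and median-of-ratios scaling together they were -0.037 for Shmt2 on SP, -0.015 for Gldc and -0.091 for Shmt2 on HP, -0.081 for Gcsh and -0.064 for Shmt2 averaged, 0.24, 0.19 and 0.087 for Sds, Sdsl and Shmt1 with G108, and 0.055 for the interaction of Shmt1. Of 414 recomputed log2 fold changes, 346 kept direction and side of the threshold, 44 kept direction but lost the call, and 24 turned. Some of those that turned also lost the call, such as Shmt2 on SP.

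With each library left out in turn, counts by TPM ranged from 0 to 1 on HP, 0 to 4 for HP against SP with G108, 0 to 7 for the interaction and 7 to 9 averaged, and stayed at 9 on SP and 0 for HP against SP with vehicle. On the median-of-ratios scale they ranged from 0 to 3 on SP, 0 to 1 on HP and 1 to 3 averaged. On HP the log2 fold change ranged from -0.14 to 0.32 for Gldc, -0.28 to 0.15 for Gcsh and -0.11 to 0.16 for Shmt2, and after scaling from -0.17 to 0.13 for Gldc. After scaling on SP it ranged from -0.0058 to 0.13 for Gcsh and -0.078 to 0.022 for Shmt2, and averaged from -0.12 to 0.0032 for Gcsh. Lowest in depth of the 9 genes tested was Sdsl, with 191 to 771 reads per library.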
